A study of Rattus norvegicus with 24 samples.

Results

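The genes of the voltage-gated calcium, voltage-gated sodium and potassium channels were followed in rat INS-1E cells, an insulinoma line that makes insulin and serves as a model of the pancreatic beta cell. Members were all annotated genes whose symbol begins with Kcn, Cacna, Cacnb, Cacng, or Scn and a digit, apart from Kcnj11, which was left out. This gave 110 of the 14217 genes with a named probe set. By symbol alone, 24 of these were grouped as calcium channel genes, 74 as potassium channel genes and 12 as sodium channel genes. A probe set is the group of short probes that reports 1 transcript, and a gene with several was read from its brightest one, by the mean of the 24 arrays.

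The cells were profiled on 24 single-colour Affymetrix arrays in 8 groups of 3. All groups were the same cell line in the same medium. At 6 h and again at 12 h there were cells without cytokines in the vehicle DMSO, cells without cytokines with BRD0476, cells with cytokines in DMSO, and cells with cytokines and BRD0476. The cytokines were IL-1b at 10 ng/ml, IFN-g at 50 ng/ml and TNF-a at 25 ng/ml, a mixture used to mimic immune attack on beta cells, and BRD0476, a small molecule known by its code name, was given at 10 uM. The labels do not say whether the 3 arrays of a group came from separate cultures, so every p-value rests on the array-to-array spread, which may be technical.

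The beta cell is electrically active. Closure of ATP-sensitive potassium channels depolarizes the membrane, voltage-gated sodium and calcium channels open, and calcium entry triggers insulin release. Voltage-gated and calcium-activated potassium channels then repolarize the cell, while background potassium channels of the Kcnk family contribute to the resting potential. Pore subunits form the channel, and auxiliary subunits adjust its gating and its delivery to the membrane.

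Levels are log2 intensities, and a change is the difference between 2 group means on that scale, given as ± its standard error with n = 3 arrays per group. A gene was called, and is said to rise or fall, when limma's p was under 0.05 after Benjamini-Hochberg adjustment across the 14217 genes. A gene is dim when all 8 of its group means lay below 5.52, the median over all probe sets and arrays. Levels of different genes were not set against each other, since probe sets differ in brightness. In cultures measured in bulk, fewer cells of a type and less RNA per cell cannot be told apart.

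Arrays of 1 group correlated with r between 0.992 and 0.998. Replicate 2 of the untreated cells at 6 h, replicate 3 of both groups with cytokines in DMSO, and replicate 1 of the group with cytokines and BRD0476 at 12 h had array weights under 0.5, and counts without these 4 arrays are given where they differ by over 1.5 times. All 12 measured markers of beta cells were above the line, with a mean level of 12.27 to 12.41 on untreated arrays at 6 h and 11.86 to 11.92 with cytokines in DMSO, where 9 of the 12 were called lower. All 7 leukocyte markers and all 7 exocrine and ductal markers were dim in every group. Of 11 markers of neurons and glia, 7 were above the line, namely the neuronal Rbfox3, Tubb3, Mapt, Syn1, Slc17a7 and Gad1 and the glial Mbp, while Slc17a6 and the glial Gfap, Aqp4 and Olig2 were dim. The mean of these 11 lay between 6.77 and 6.84 on untreated arrays at 6 h and between 6.81 and 7.13 with cytokines in DMSO. In that comparison 4 of the 11 were called higher (Syn1, Slc17a7, Gad1 and Olig2) and Mbp lower. Of the other lists, 1 of 6 markers of other islet cells (Gcg), 1 of 6 of fibroblasts (Pdgfra), 1 of 4 of endothelium (Kdr) and 1 of 8 of muscle (Acta1) were above the line. With cytokines in DMSO at 6 h these changed by -0.96 for Gcg, -1.63 for Pdgfra, -1.76 for Kdr and -0.67 for Acta1, and all were called. The part of these markers in the channel results was not tested.

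Most channel genes gave a weak signal. Of the 110 members, 61 were dim (55.5%), against 4443 of all 14217 genes (31.3%), and 49 were not. Scn11a, at 5.51 in its highest group, was the dim member nearest the line, and Cacng4, at 5.54, was the nearest above it. Some members passed the line through few groups: Cacna1a, Cacna1g, Cacnb1, Cacng4, Kcnk13, Kcnn3, Kcnq5 and Kcns3 were above it only in groups with cytokines, and Kcnh1 and Kcnip4 only in 1 group with BRD0476 alone. Kcnab3 was above it only in the groups without cytokines at 6 h. With the lower quartile, 3.84, as the line, 89 members were not dim. Of the 137 genes of these families in RefSeq, 26 were not named in the annotation used here, and these were not analysed.

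The members above the line came from every family. Among calcium channel genes they were 6 of 10 pore subunits (Cacna1a, Cacna1b, Cacna1c, Cacna1d, Cacna1g and Cacna1h) and both Cacna2d genes measured. With them were 3 of 4 beta subunits (Cacnb1, Cacnb2 and Cacnb3) and 3 of 8 genes named as gamma subunits. Among sodium channels, Scn3a was the only 1 of 9 pore subunits above it, and Scn3b the only 1 of 3 beta subunits. Among potassium channels they were 16 of 31 voltage-gated pore subunits, 5 of 11 auxiliary subunits, 4 of 7 subunits of calcium-activated channels, 2 of 14 inward rectifiers (Kcnj6 and Kcnj14) and 6 of 11 Kcnk channels.

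With cytokines in DMSO at 6 h, 44 of the 110 members (40%) were called, beside 51.7% of all genes. They were 22 higher and 22 lower, where 24.3% and 27.4% of all genes were higher and lower. At 12 h 40 members were called, 14 higher and 26 lower, beside 45.9% of all genes, 16% higher and 29.9% lower. When arrays were centred on their medians the split at 12 h was 22 higher and 23 lower. The shares differ with signal: of genes whose mean over all arrays lay above the line 68.1% were called at 6 h, and of those below it 20.4%. Of the 39 members with a mean above the line 26 were called, and 18 of the 71 below it. The median change of the members was 0.03 at 6 h and 0.02 at 12 h, and that of all genes was 0.00 and -0.04.

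**Figure D1:**
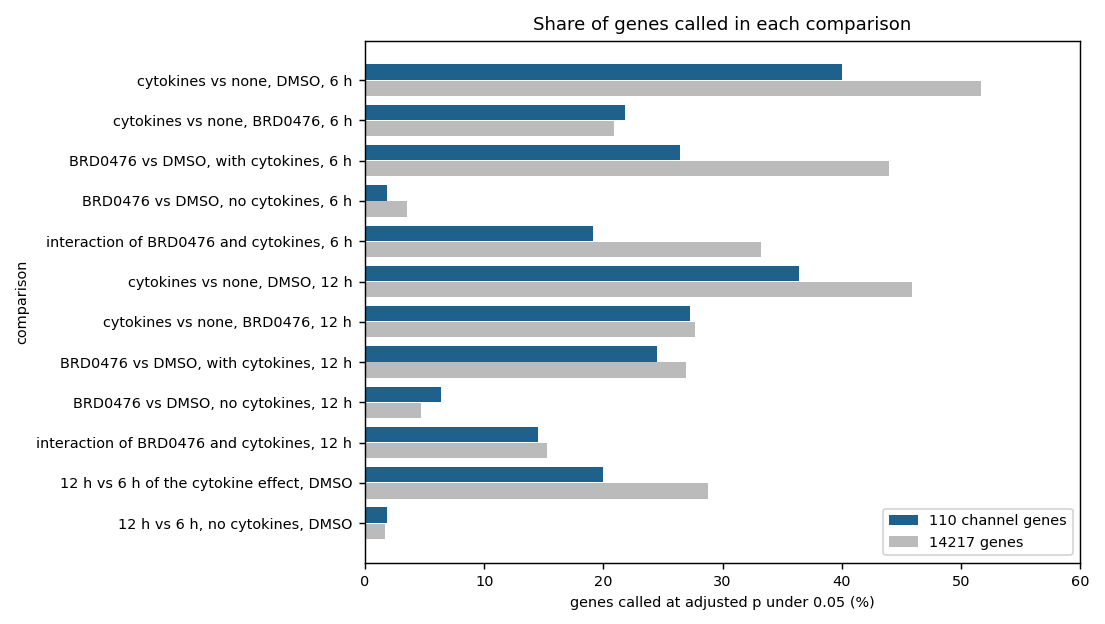
Share of genes called at an adjusted p under 0.05 in each of the 12 comparisons, in percent, for the 110 channel genes (blue) and all 14217 genes tested (grey). With cytokines in DMSO at 6 h the bars stand at 40% for the channel genes and 51.7% for all genes; no test of the difference was run.

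The response to cytokines in DMSO was not of 1 direction within the potassium channels: 15 of 74 rose and 15 fell at 6 h, and 8 rose and 17 fell at 12 h. Calcium channel genes split into 4 higher and 4 lower of 24 at 6 h, and 1 higher and 7 lower at 12 h. Beside these counts, 24.3% of all genes rose and 27.4% fell at 6 h, and 16% rose and 29.9% fell at 12 h. The counts thus show nothing particular to the channels. Of the 22 members that rose at 6 h, 9 also rose at 12 h, which is 40.9% of the first list and 64.3% of the 14 at 12 h. Of the 22 that fell at 6 h, 16 also fell at 12 h (72.7% of that list and 61.5% of the 26 at 12 h). No share over all genes is set beside these overlaps. Kcna2 was higher at 6 h and lower at 12 h, where its call was lost without any of 4 single arrays (adjusted p from 0.058 to 0.20). Kcnj14 and Scn3a were lower at 6 h and higher at 12 h. The call of Kcnj14 at 12 h lay near the threshold (adjusted p = 0.049) and was lost without most single arrays.

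**Figure D2:**
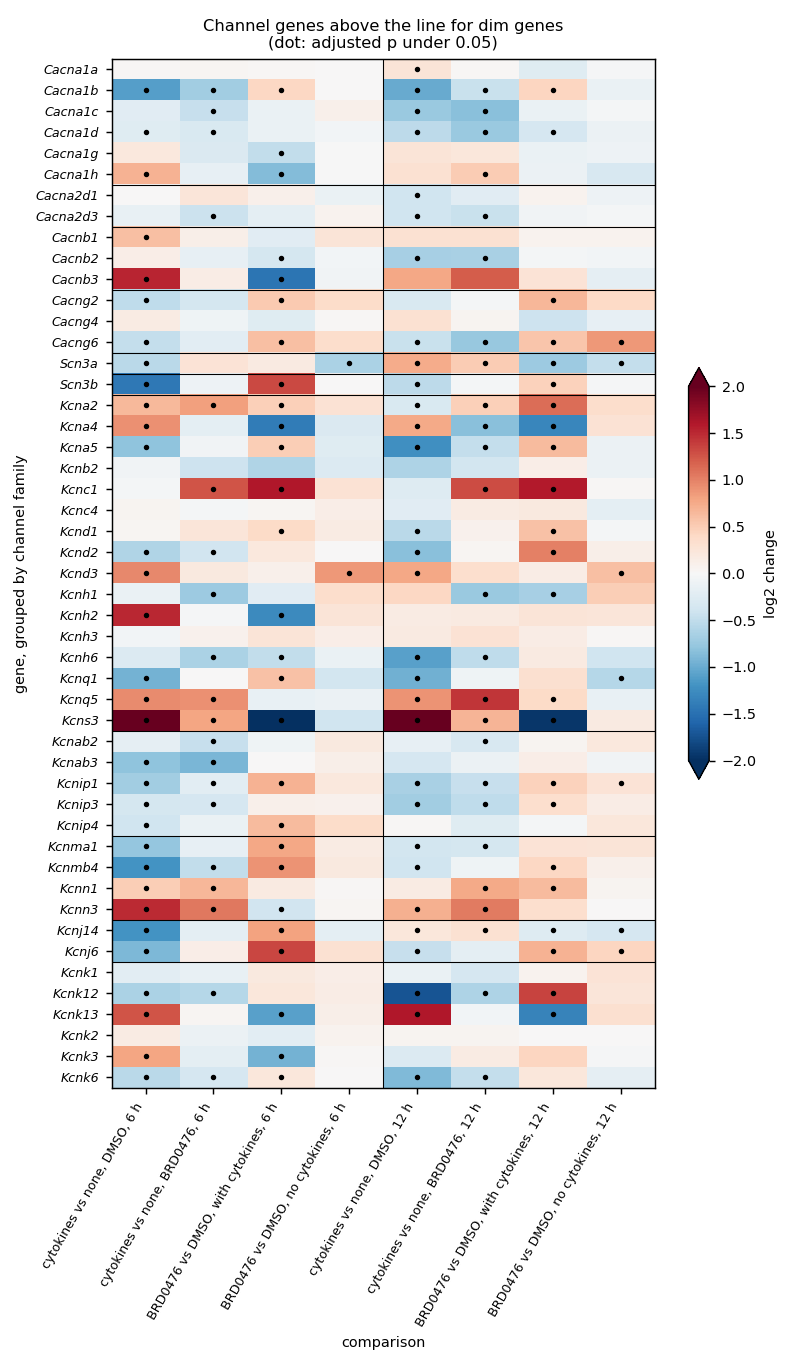
Log2 change of the 49 channel genes above the line for dim genes (rows, grouped by family) in 8 comparisons (columns, 6 h on the left and 12 h on the right). Colour gives the change, red for higher and blue for lower, cut at 2 in either direction, and a dot marks an adjusted p under 0.05. Kcns3 and Kcnk13 are red with cytokines in DMSO at both times and blue where BRD0476 is set against DMSO with cytokines.

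Kcns3 had the largest change with cytokines in DMSO of all 110 members at both times. It encodes a silent subunit, which forms no channel alone and modifies delayed rectifier channels formed by other subunits. On untreated arrays at 6 h it read 4.69, 4.76 and 4.41, and with cytokines in DMSO 6.99, 7.24 and 7.37. With BRD0476 it read 4.03, 4.58 and 4.05 without cytokines and 5.15, 5.01 and 4.86 with them. The arrays with cytokines in DMSO stood above all others, and none of the 4 groups of arrays with cytokines overlapped its own control. The rise was 2.58 ± 0.15 with DMSO (5.99-fold, adjusted p = 3.1e-12) and 0.79 ± 0.15 with BRD0476 (1.73-fold, adjusted p = 0.00033). The difference between these responses was -1.79 ± 0.21 (adjusted p = 8.3e-07). At 12 h the untreated arrays read 3.99, 4.42 and 4.30, and those with cytokines in DMSO 7.07, 6.91 and 7.12. The rise was then 2.79 ± 0.15 with DMSO and 0.68 ± 0.15 with BRD0476, a difference of -2.12 ± 0.21 (adjusted p = 1.7e-07). The untreated level lay below the line for dim genes, where fold changes are uncertain.

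Kcnk13 and Kcna4 rose in DMSO and not with BRD0476. Kcnk13, a background potassium channel, read 3.92, 4.24 and 4.25 on untreated arrays at 6 h, 5.33, 5.48 and 5.35 with cytokines in DMSO, and 4.36, 4.07 and 4.47 with cytokines and BRD0476. Its rise was 1.25 ± 0.11 at 6 h and 1.60 ± 0.11 at 12 h in DMSO, and its change with BRD0476 was 0.04 ± 0.11 and -0.06 ± 0.11. Kcnk13 was above the line for dim genes only with cytokines in DMSO at 12 h (mean 5.65), so its fold changes, like those of Kcns3, are uncertain. Arrays with cytokines and BRD0476 overlapped those of their control, and the differences between the responses were -1.21 ± 0.16 and -1.66 ± 0.16 (adjusted p = 5.9e-06 and 1.9e-07). Kcna4, a pore subunit of rapidly inactivating A-type channels, read 6.97, 7.29 and 6.83 on untreated arrays at 6 h and 7.97, 8.02 and 7.87 with cytokines in DMSO. With cytokines and BRD0476 it read 6.55, 6.55 and 6.56 at 6 h and 6.27, 6.40 and 6.53 at 12 h, below every other array of its time. It rose by 0.92 ± 0.10 at 6 h and 0.76 ± 0.10 at 12 h in DMSO, and at 12 h with BRD0476 it fell by 0.84 ± 0.10. The differences between the responses were -1.11 ± 0.14 and -1.60 ± 0.14 (adjusted p = 2.4e-06 and 3.5e-08).

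Kcnn3 and Kcnq5 rose with cytokines whether or not BRD0476 was present. Kcnn3, a small-conductance calcium-activated potassium channel, read 4.33, 4.07 and 4.37 untreated, 5.67, 5.76 and 5.83 with cytokines in DMSO, and 5.44, 5.27 and 5.37 with cytokines and BRD0476 at 6 h. It rose by 1.5 ± 0.13 in DMSO and by 1.06 ± 0.13 with BRD0476 at 6 h, and by 0.71 ± 0.13 and 1.03 ± 0.13 at 12 h. The difference between the responses was not called at either time. Kcnn3 was above the line for dim genes only with cytokines in DMSO at 6 h (mean 5.75), so its fold changes are uncertain. Kcnq5, of the slowly activating M-type channels, read 5.40, 5.72 and 5.29 untreated, 6.46, 6.3 and 6.48 with cytokines in DMSO, and 6.32, 6.39 and 6.08 with both. No array with cytokines overlapped its control. Without cytokines the means of Kcnq5 lay below the line for dim genes. The rise of Kcnq5 was 0.95 ± 0.13 in DMSO and 0.92 ± 0.13 with BRD0476 at 6 h, and 0.90 ± 0.13 and 1.44 ± 0.13 at 12 h, where the difference of 0.54 ± 0.18 was not called (adjusted p = 0.053). Kcnn1, of the same family as Kcnn3, rose by 0.50 ± 0.12 and 0.66 ± 0.12 at 6 h, and at 12 h only its change with BRD0476 was called (0.76 ± 0.12, against 0.17 ± 0.12 in DMSO), a difference of 0.59 ± 0.17 (adjusted p = 0.019). That call was lost without replicate 1 of the group with both agents (adjusted p = 0.057).

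Kcnc1, a pore subunit of fast delayed rectifier channels, was higher in cells that had received cytokines and BRD0476 together. It read 5.45, 5.58 and 5.61 on untreated arrays, 5.57, 5.84 and 5.11 with cytokines, 6.02, 5.62 and 5.88 with BRD0476, and 7.12, 7.24 and 6.95 with both at 6 h. At 12 h the arrays with both read 6.72, 6.93 and 6.71, and the other 9 lay between 5.06 and 5.66. The change with cytokines was -0.04 ± 0.14 and -0.26 ± 0.14 in DMSO at 6 and 12 h, neither called, and 1.26 ± 0.14 and 1.31 ± 0.14 with BRD0476. The difference between the responses was 1.30 ± 0.20 at 6 h and 1.56 ± 0.20 at 12 h (adjusted p = 3.1e-05 and 6.6e-06). At 12 h the means of Kcnc1 were 5.45 untreated, 5.20 with cytokines and 5.48 with BRD0476. These lay below the line for dim genes, as did 5.51 with cytokines in DMSO at 6 h, so its fold changes are uncertain. Kcna2, a delayed rectifier pore subunit, also read highest with both. At 12 h it read 7.08, 7.03 and 7.13, with 6.14, 6.2 and 6.44 untreated, 5.90, 5.90 and 6.07 with cytokines, and 6.62, 6.58 and 6.61 with BRD0476. Its difference between the responses was 0.78 ± 0.17 at 12 h (adjusted p = 0.0023). At 6 h Kcna2 rose by 0.64 ± 0.12 in DMSO and 0.82 ± 0.12 with BRD0476, and the difference of 0.18 ± 0.17 was not called.

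**Figure D3:**
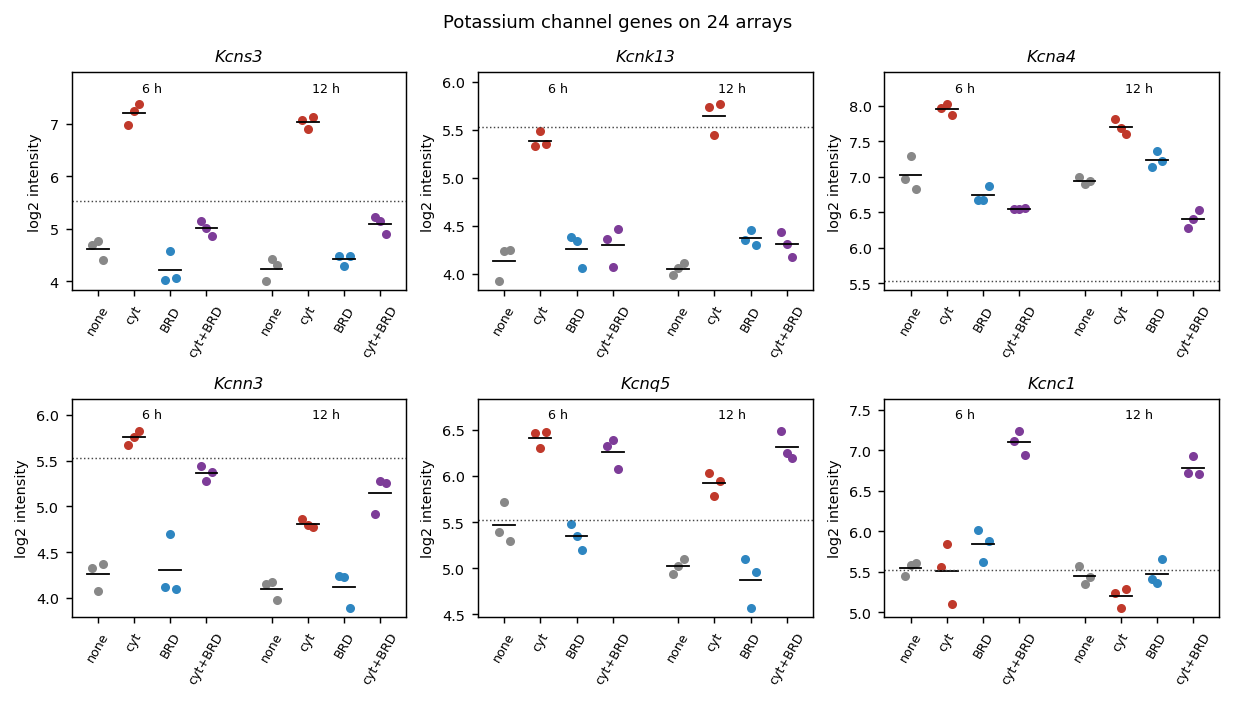
Log2 intensity of 6 potassium channel genes on each of the 24 arrays (points, 3 per group) with group means (bars), for no cytokines (none), cytokines (cyt), BRD0476 (BRD) and both. The dotted line, where in range, is the line for dim genes, 5.52. Kcns3, Kcnk13 and Kcna4 are highest with cytokines in DMSO, Kcnn3 and Kcnq5 are high in both groups with cytokines, and Kcnc1 is high in cells with both agents.

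A further pair of genes that rose in DMSO varied between replicates. Kcnh2, the pore subunit of rapid delayed rectifier channels, read 6.71, 6.70 and 6.68 untreated and 8.48, 8.61 and 7.55 with cytokines in DMSO at 6 h, and 7.03, 6.91 and 6.86 with both. The rise was 1.51 ± 0.19 in DMSO at 6 h (adjusted p = 7.9e-07) and the change 0.17 ± 0.19 at 12 h. Kcnk3, an acid-sensitive background channel, read 7.52, 7.35 and 6.56 with cytokines in DMSO at 6 h and 6.29, 6.48 and 6.29 untreated, a rise of 0.79 ± 0.17 (adjusted p = 0.00038). In both genes replicate 3 read lowest of the 3, although still above the untreated arrays. Without the 4 arrays of low weight, an alternative chosen after seeing the data, the rises were 1.85 ± 0.10 for Kcnh2 and 1.14 ± 0.11 for Kcnk3.

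Kcnd3, an A-type pore subunit, rose with either agent. It read 4.94, 4.92 and 4.84 untreated, 5.94, 5.97 and 5.65 with cytokines, 5.72, 5.74 and 5.83 with BRD0476, and 5.94, 6.08 and 5.83 with both at 6 h. The untreated arrays lay below all others. Their means, 4.90 at 6 h and 5.20 at 12 h, lay below the line for dim genes, where fold changes are uncertain. The rise with cytokines was 0.96 ± 0.13 in DMSO and, in cells with BRD0476, the change with cytokines was 0.19 ± 0.13, a difference of -0.77 ± 0.18 (adjusted p = 0.0019). With cytokines in DMSO at 12 h Kcnd3 rose by 0.78 ± 0.13, and the difference of -0.45 ± 0.18 was not called.

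Promoter sequence was read from RefSeq (GRCr8), as windows of 300 bases around each annotated start, most of them before it, written 5′ to 3′ on the strand of the gene. Of the 110 members 78 matched, with 87 windows. Windows were picked for some of the members that moved far with cytokines in DMSO at both times. Kcnq1 (-0.95 at 6 h and -0.96 at 12 h) and Kcna5 (-0.80 and -1.23) also moved far, and no window was picked for them. The windows of Cacna1b and Kcnq5 were picked, hold no match to the motifs searched for, and are not printed. Windows of Kcns3 and Kcnk13, which rose in DMSO and less or not at all with BRD0476, are shown. The window of Kcnd3, which rose with either agent, is shown too. Capitals mark a match to the STAT motif, and only Kcnd3 has one.
Kcns3, first start, chr6:39584056-39584355, minus strand: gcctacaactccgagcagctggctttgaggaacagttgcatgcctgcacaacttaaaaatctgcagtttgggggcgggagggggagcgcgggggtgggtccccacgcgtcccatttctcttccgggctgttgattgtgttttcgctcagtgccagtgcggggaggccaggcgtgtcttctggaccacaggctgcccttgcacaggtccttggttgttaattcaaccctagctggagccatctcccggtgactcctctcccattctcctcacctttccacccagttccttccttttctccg
Kcns3, second start, chr6:39583345-39583644, minus strand: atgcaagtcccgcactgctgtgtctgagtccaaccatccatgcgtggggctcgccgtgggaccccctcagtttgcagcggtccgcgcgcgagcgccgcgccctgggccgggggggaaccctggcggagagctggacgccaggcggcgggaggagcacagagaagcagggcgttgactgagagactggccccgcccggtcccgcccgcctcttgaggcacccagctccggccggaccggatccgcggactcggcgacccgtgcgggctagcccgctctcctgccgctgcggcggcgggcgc
Kcnk13, chr6:124971559-124971858, plus strand: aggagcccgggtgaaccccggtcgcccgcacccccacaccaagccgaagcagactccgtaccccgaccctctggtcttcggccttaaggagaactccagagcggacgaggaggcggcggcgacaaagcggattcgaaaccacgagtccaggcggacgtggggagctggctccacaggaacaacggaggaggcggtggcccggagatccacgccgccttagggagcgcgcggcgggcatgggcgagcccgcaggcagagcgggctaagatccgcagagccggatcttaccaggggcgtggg
Kcnd3, chr2:195626066-195626365, plus strand: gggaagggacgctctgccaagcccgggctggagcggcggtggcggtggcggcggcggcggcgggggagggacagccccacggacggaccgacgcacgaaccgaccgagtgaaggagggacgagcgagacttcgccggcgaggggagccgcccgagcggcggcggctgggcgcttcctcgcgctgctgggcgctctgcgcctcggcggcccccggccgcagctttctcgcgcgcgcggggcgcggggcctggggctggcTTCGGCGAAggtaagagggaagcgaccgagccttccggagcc

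The windows were searched on both strands. TTCNNNGAA, the STAT motif, was found in 7 of the 87 member windows (8.05%) and in 8.87% of all 33469 windows. The interferon response element, TTTC with any 2 bases before another TTTC, was found in 2 (2.30%) against 3.92%, and an NF-kappaB motif, GGG with any 2 bases before TTTCC, in 0 against 1.53%. The genes with a STAT match were Kcna6, Kcnc2, Kcnd3, Kcnk4, Scn2b and Scn9a, all of them dim apart from Kcnd3. The member windows were richer in G and C, with a median of 61.7% against 51.7%, and held a median of 15 CpG pairs against 7. A match describes letters in these windows only, and the windows shown for Kcns3 and Kcnk13 hold no match to the 3 motifs.

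Other voltage-gated potassium channel genes fell. Kcna5, a delayed rectifier pore subunit, read 5.91, 5.88 and 5.99 untreated at 12 h and 4.61, 4.66 and 4.83 with cytokines, with 5.43, 5.27 and 5.31 with both. It changed by -0.80 ± 0.12 at 6 h and -1.23 ± 0.12 at 12 h in DMSO, and the responses with and without BRD0476 differed by 0.73 ± 0.17 and 0.75 ± 0.17. Kcnq1, the slow delayed rectifier, read 6.83, 6.89 and 6.86 untreated, 6.23, 5.55 and 5.96 with cytokines, and 6.63, 6.51 and 6.38 with both at 6 h. Cytokines changed it by -0.95 ± 0.15 at 6 h and -0.96 ± 0.15 at 12 h in DMSO, and by 0.00 ± 0.15 and -0.08 ± 0.15 with BRD0476. BRD0476 alone changed Kcnq1 by -0.36 ± 0.15 at 6 h, not called, and by -0.56 ± 0.15 at 12 h, called. The means of Kcnq1 at 12 h were 6.60 untreated, 5.64 with cytokines, 6.04 with BRD0476 and 5.96 with both. Kcnd1, an A-type pore subunit, changed by 0.03 ± 0.15 at 6 h, which was not called, and fell at 12 h in DMSO (-0.54 ± 0.15, adjusted p = 0.0062). Kcnd2, another A-type gene, changed by -0.60 ± 0.14 and -0.84 ± 0.14 in DMSO, and by -0.39 ± 0.14 and 0.04 ± 0.14 with BRD0476, where the call at 6 h was lost without any of 4 single arrays (adjusted p up to 0.27). Kcnh6, a relative of Kcnh2, changed by -0.27 ± 0.14 at 6 h, which was not called, and by -1.09 ± 0.14 at 12 h in DMSO, and fell with BRD0476 at both times (-0.63 ± 0.14 and -0.51 ± 0.14).

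Of the 11 auxiliary subunits, 4 fell and 2 rose with cytokines in DMSO at 6 h, and 2 fell and 1 rose at 12 h. Of all genes 27.4% fell and 24.3% rose at 6 h, and 29.9% fell and 16% rose at 12 h. The 4 that fell at 6 h include Kcnip3, whose probe sets disagree there. Kcnip1, a calcium-binding subunit of A-type channels, read 9.60, 9.31 and 9.63 untreated, 8.79, 8.87 and 8.81 with cytokines in DMSO, and 9.52, 9.5 and 9.52 with both at 6 h. Its change was -0.69 ± 0.07 in DMSO and -0.21 ± 0.07 with BRD0476, a difference of 0.48 ± 0.10 (adjusted p = 0.00071), and at 12 h the difference of 0.19 ± 0.10 was not called. The call with BRD0476 was lost without any of 5 of its 6 arrays (adjusted p up to 0.14). Kcnab3, a beta subunit of Kcna channels, fell in DMSO (-0.81 ± 0.14) and with BRD0476 (-0.92 ± 0.14) at 6 h, with a difference of -0.12 ± 0.20 that was not called. Kcnab3 was above the line for dim genes only without cytokines at 6 h (means 5.61 in DMSO and 5.73 with BRD0476). These groups are the controls of both falls, so the line favours the falls, and the fold changes are uncertain. Kcnip3 changed by -0.35 ± 0.08 at 6 h, but its other probe set changed by 1.03, so no direction is given for it there. At 12 h these probe sets changed by -0.69 and -0.48.

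Both large-conductance (BK) channel genes above the line fell in DMSO at 6 h. Kcnmb4, a BK beta subunit, read 8.35, 8.44 and 8.30 untreated, 7.32, 7.07 and 7.10 with cytokines, and 8.10, 8.09 and 8.0 with both. Kcnma1, the BK pore, read 9.24, 9.41 and 9.08 untreated, 8.61, 8.51 and 8.31 with cytokines, and 9.25, 9.30 and 9.19 with both. The arrays with cytokines in DMSO were the lowest of the time for both genes. The changes in DMSO were -1.20 ± 0.08 for Kcnmb4 and -0.77 ± 0.10 for Kcnma1, and the responses with BRD0476 differed from these by 0.71 ± 0.12 and 0.60 ± 0.14. At 12 h Kcnmb4 changed by -0.40 ± 0.08 in DMSO and -0.09 ± 0.08 with BRD0476, and Kcnma1 by -0.36 ± 0.10 and -0.35 ± 0.10. Neither difference was called then (0.31 ± 0.12 and 0.01 ± 0.14). Kcnj6, a G-protein-gated inward rectifier, read 6.59, 6.90 and 6.65 untreated, 5.86, 5.81 and 5.77 with cytokines, and 7.20, 7.20 and 7.08 with both. Its change was -0.90 ± 0.11 in DMSO and 0.14 ± 0.11 with BRD0476, a difference of 1.04 ± 0.16 (adjusted p = 3.6e-05), and at 12 h the difference of 0.27 ± 0.16 was not called.

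Kcnj14, another inward rectifier, changed direction with time. It read 6.65, 6.68 and 6.69 untreated and 5.57, 5.40 and 5.47 with cytokines at 6 h, and 6.94, 7.02 and 6.91 untreated and 7.19, 7.26 and 7.10 with cytokines at 12 h. The groups did not overlap at either time. The change was -1.19 ± 0.09 at 6 h (adjusted p = 4.7e-10) and 0.23 ± 0.09 at 12 h (adjusted p = 0.049), and these differed by 1.42 ± 0.13 (adjusted p = 6.0e-08). The call at 12 h was lost when any of 5 of the 6 arrays was left out, with adjusted p up to 0.16.

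Kcnk12 had the largest fall among the Kcnk genes above the line. It encodes a silent relative of Kcnk13. It read 7.39, 7.25 and 7.31 untreated and 6.71, 6.84 and 6.48 with cytokines at 6 h. At 12 h it read 7.06, 6.86 and 7.14 untreated, 5.45, 5.24 and 5.21 with cytokines, and 6.62, 6.56 and 6.77 with both. The change in DMSO was -0.64 ± 0.10 at 6 h and -1.72 ± 0.10 at 12 h, a difference of -1.08 ± 0.14 (adjusted p = 5.5e-06). With BRD0476 it was -0.57 ± 0.10 and -0.61 ± 0.10, and at 12 h the responses differed by 1.11 ± 0.14 (adjusted p = 6.6e-06). Kcnk6, of the same family, changed by -0.54 ± 0.09 and -0.89 ± 0.09 in DMSO, and Kcnk1 by -0.22 ± 0.13 and -0.13 ± 0.13, neither called. For Kcnk2 the probe set used changed by 0.17 at 6 h and the other by -1.54, so no direction is given.

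The L-type calcium channel pores, which carry much of the calcium current of beta cells, fell by 12 h. Cacna1c read 7.77, 7.78 and 7.74 untreated at 12 h, 7.19, 7.0 and 6.90 with cytokines, and 6.95, 7.02 and 6.71 with both, against 7.80, 7.53 and 7.86 with BRD0476. Cacna1d read 7.66, 7.58 and 7.61 untreated, 7.22, 6.90 and 7.15 with cytokines, and 6.75, 6.78 and 6.73 with both, against 7.45, 7.53 and 7.50 with BRD0476. In both genes all arrays with cytokines lay below all arrays without them at 12 h. Cacna1c changed by -0.74 ± 0.12 in DMSO and -0.84 ± 0.12 with BRD0476, and Cacna1d by -0.53 ± 0.07 and -0.74 ± 0.07. Neither difference between responses was called. At 6 h the change in DMSO was -0.22 ± 0.12 for Cacna1c (not called) and -0.24 ± 0.07 for Cacna1d, which was not called (adjusted p = 0.12) when the probe sets of the gene were averaged. With BRD0476 both genes were called lower at 6 h. The changes were -0.46 ± 0.12 for Cacna1c (adjusted p = 0.0081) and -0.31 ± 0.07 for Cacna1d (adjusted p = 0.0024).

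Cacnb2, an auxiliary beta subunit that carries the pore to the membrane, fell at 12 h and not at 6 h. It read 8.52, 8.60 and 8.51 untreated and 8.70, 8.63 and 8.70 with cytokines at 6 h, and 8.69, 8.76 and 8.76 untreated and 8.19, 8.01 and 8.0 with cytokines at 12 h. The change went from 0.13 ± 0.07 at 6 h (not called) to -0.67 ± 0.07 at 12 h in DMSO, a difference of -0.80 ± 0.10 (adjusted p = 2.4e-06). With BRD0476 the change at 12 h was -0.65 ± 0.07. Cacna2d1 and Cacna2d3, auxiliary subunits outside the membrane, changed by -0.39 ± 0.10 and -0.41 ± 0.09 at 12 h in DMSO.

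Cacna1b, the N-type pore, fell at both times. It read 7.43, 7.58 and 7.15 untreated, 6.36, 6.37 and 6.14 with cytokines, and 6.65, 6.75 and 6.72 with both at 6 h. The change was -1.10 ± 0.10 in DMSO and -0.69 ± 0.10 with BRD0476 at 6 h, and -1.01 ± 0.10 and -0.44 ± 0.10 at 12 h. The difference between responses was 0.41 ± 0.14 at 6 h and 0.56 ± 0.14 at 12 h (adjusted p = 0.024 and 0.0057), and the call at 6 h was lost without any of 4 single arrays, with adjusted p from 0.051 to 0.077. The other probe set of Cacna1b changed by 0.08 and -0.23 in DMSO, so this fall rests on 1 probe set.

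Cacnb3, a beta subunit known to restrain calcium release in beta cells, had the widest spread within groups of all members. It read 8.46, 8.34 and 8.37 untreated and 10.03, 10.90 and 8.81 with cytokines in DMSO at 6 h, with 8.45, 8.47 and 8.44 with both. At 12 h it read 8.16, 8.13 and 8.18 untreated, 9.11, 9.84 and 7.84 with cytokines, and 8.02, 9.45 and 10.13 with both. The arrays without cytokines and those with both agents at 6 h were tight, and 3 groups with cytokines were spread over more than a log2 unit. The change in DMSO was 1.52 ± 0.47 at 6 h (adjusted p = 0.0097), 1.03 ± 0.48 without replicate 2 of the group with cytokines (adjusted p = 0.086), and 2.05 ± 0.24 without the 4 arrays of low weight. At 12 h it was 0.77 ± 0.47 in DMSO (adjusted p = 0.20) and 1.22 ± 0.47 with BRD0476 (adjusted p = 0.061), neither called.

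The spread was shared by other genes. The standard deviation of Cacnb3 within groups was 0.643, against a median of 0.127 over all genes, and 28 genes had a larger one. Over the 24 arrays, deviations from the group mean correlated with those of Cacnb3 at r = 0.86 for Kcnh2, 0.86 for Cacna1h, 0.84 for Cacna1g, 0.82 for Cacng2 and 0.73 for Kcnh6. In all, 594 other genes (4.18%) had r over 0.8 and 142 had r under -0.8. All 24 arrays entered these correlations, the labels give no batch of culture or labelling, and the part of this spread in the changes was not tested. Cacna1h, a T-type pore that opens at low voltage, read 8.48, 8.45 and 8.35 untreated and 9.20, 9.38 and 8.77 with cytokines in DMSO at 6 h, and 8.41, 8.13 and 8.24 with both. All arrays with cytokines in DMSO lay above all others, with replicate 3 lowest as in Cacnb3. The rise of Cacna1h was 0.69 ± 0.16 (adjusted p = 0.00071), and the responses with and without BRD0476 differed by -0.85 ± 0.22 (adjusted p = 0.0046). At 12 h the change of Cacna1h was 0.30 ± 0.16 in DMSO, not called, and 0.51 ± 0.16 with BRD0476 (adjusted p = 0.018, and lost without any of 4 single arrays, with adjusted p up to 0.11), and their difference of 0.21 ± 0.22 was not called.

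**Figure D4:**
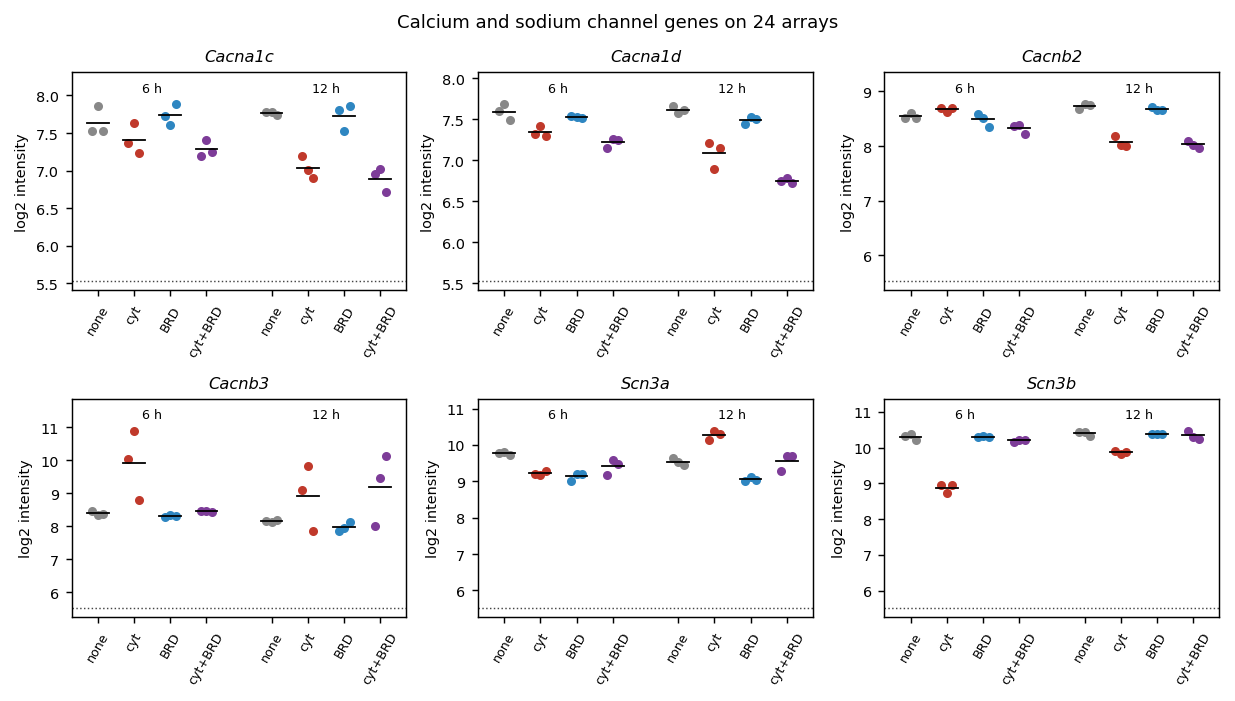
Log2 intensity of 4 calcium and 2 sodium channel genes on each of the 24 arrays (points) with group means (bars), in the 4 treatments at 6 and 12 h. Cacna1c, Cacna1d and Cacnb2 are low in both groups with cytokines at 12 h, Cacnb3 is spread within groups, Scn3a is lower with cytokines in DMSO at 6 h and higher at 12 h, and Scn3b is low with cytokines in DMSO at 6 h.

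Both sodium channel genes above the line changed. Scn3b, an auxiliary beta subunit, read 10.32, 10.38 and 10.22 untreated and 8.94, 8.72 and 8.95 with cytokines at 6 h, and 10.16, 10.22 and 10.22 with both. At 12 h it read 10.44, 10.43 and 10.33 untreated and 9.90, 9.82 and 9.89 with cytokines. The arrays with cytokines in DMSO were the lowest at each time. The change was -1.43 ± 0.07 at 6 h (2.70-fold lower, adjusted p = 1.9e-13) and -0.53 ± 0.07 at 12 h in DMSO, and -0.11 ± 0.07 and -0.04 ± 0.07 with BRD0476, neither called. The difference between responses was 1.33 ± 0.10 at 6 h and 0.49 ± 0.10 at 12 h (adjusted p = 1.4e-09 and 0.00092).

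Scn3a, the pore subunit, fell at 6 h and rose at 12 h with cytokines in DMSO. It read 9.77, 9.80 and 9.74 untreated and 9.21, 9.19 and 9.28 with cytokines at 6 h, and 9.63, 9.52 and 9.46 untreated and 10.12, 10.39 and 10.31 with cytokines at 12 h. The change in DMSO was -0.54 ± 0.11 at 6 h and 0.74 ± 0.11 at 12 h, and these differed by 1.28 ± 0.15 (adjusted p = 1.5e-06). With BRD0476 the change with cytokines was 0.28 ± 0.11 at 6 h, not called, from a mean of 9.13 with BRD0476 alone. At 12 h it was 0.50 ± 0.11 (adjusted p = 0.0011). Among dim sodium channel genes, Scn4b rose by 1.66 ± 0.12 and Scn2a by 0.88 ± 0.16 in DMSO at 6 h, and Scn1a changed by -0.67 ± 0.12.

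When BRD0476 was set against DMSO in cells with cytokines, 29 members were called at 6 h, 16 higher and 13 lower, beside 44% of all genes, 24.7% higher and 19.4% lower. At 12 h 27 were called, 18 higher and 9 lower, beside 26.9% of all genes, 16.3% higher and 10.6% lower. These contrasts share the arrays with cytokines in DMSO with those above. Between the 2 times, which share no arrays, 11 members were higher at both (68.8% of 16 and 61.1% of 18) and 4 lower at both, namely Kcna4, Kcnk13, Kcns3 and the dim Scn2a, while Kcnj14 was higher at 6 h and lower at 12 h. The 11 were Cacna1b, Cacng2, Cacng6, Kcna2, Kcna5, Kcnc1, Kcnd1, Kcnip1, Kcnj6, Kcnmb4 and Scn3b. No share over all genes is set beside these overlaps, so they show nothing particular to the channels.

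Cytokines given with BRD0476 still changed 24 members at 6 h, 8 higher and 16 lower, beside 20.9% of all genes, 10.3% higher and 10.7% lower. At 12 h they changed 30, 11 higher and 19 lower, beside 27.7% of all genes, 9.19% higher and 18.5% lower. All 8 that rose at 6 h also rose at 12 h (72.7% of the 11): Kcna2, Kcnc1, Kcnj2, Kcnn1, Kcnn3, Kcnq5, Kcns3 and Scn4b. Here too no share over all genes is set beside the overlap. The response to cytokines differed with BRD0476 from that in DMSO for 21 members at 6 h, 11 with a positive difference and 10 with a negative one, beside 33.2% of all genes, 18.8% positive and 14.4% negative. At 12 h it differed for 16, 11 positive and 5 negative, beside 15.3% of all genes, 8.38% positive and 6.89% negative, and the split was 9 and 7 with arrays centred on their medians. Kcnh1, a delayed rectifier pore subunit, had a called difference at 12 h. It read 5.94, 5.30 and 5.22 with cytokines in DMSO and 4.75, 4.89 and 4.85 with both. Its controls had means of 5.08 in DMSO and 5.57 with BRD0476 alone. Cytokines changed it then by 0.407 ± 0.195 in DMSO, not called (adjusted p = 0.098), and by -0.740 ± 0.195 with BRD0476. The responses differed by -1.15 ± 0.28 (adjusted p = 0.0056), with -0.58 ± 0.28 at 6 h, which was not called. Kcnh1 was above the line for dim genes only with BRD0476 alone at 12 h, a group that enters this difference.

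**Figure D5:**
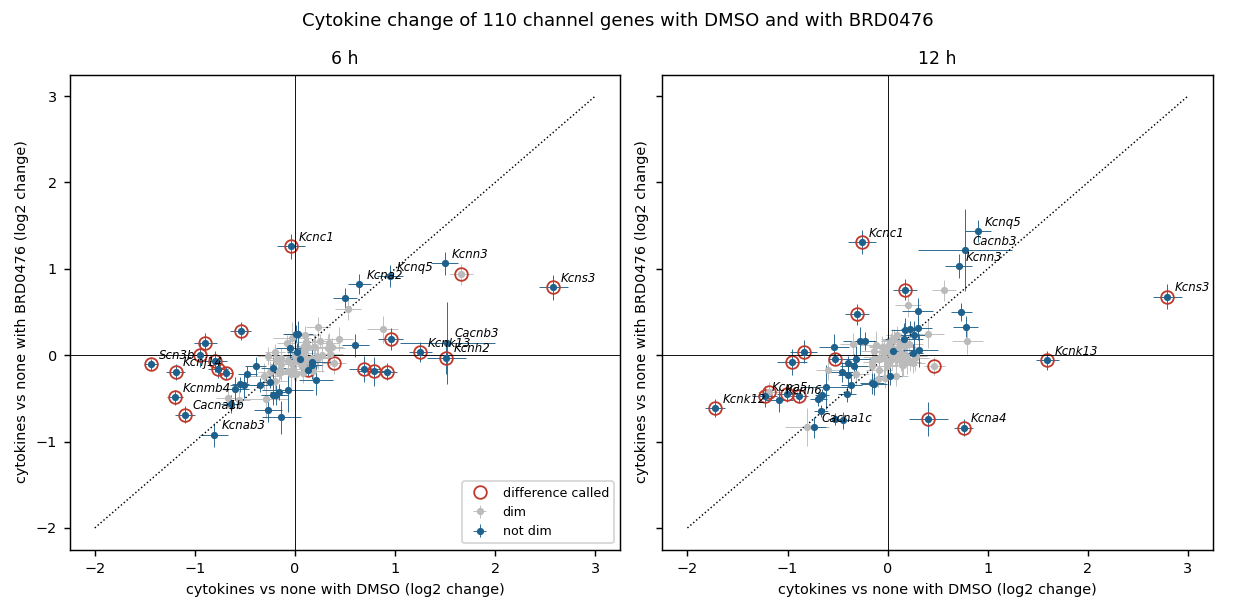
Change with cytokines in DMSO (horizontal) against the change with cytokines in BRD0476 (vertical), both log2 with standard errors as bars, for the 110 channel genes at 6 h (left) and 12 h (right). Blue points are above the line for dim genes, grey points are dim, red rings mark a called difference between the responses, and points on the dotted diagonal changed equally. Kcns3 lies far right of the diagonal at both times and Kcnc1 far above it.

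BRD0476 without cytokines changed few members. At 6 h 2 were called, beside 3.53% of all genes, 1.68% higher and 1.85% lower: Kcnd3 rose by 0.86 ± 0.13 and Scn3a changed by -0.63 ± 0.11. At 12 h 7 were called, 4 higher and 3 lower, beside 4.66% of all genes, 2.02% higher and 2.64% lower. Kcnd3 (0.59 ± 0.13), Cacng6 (0.86 ± 0.10), Kcnj6 (0.43 ± 0.11) and Kcnip1 (0.27 ± 0.07) rose, and Scn3a (-0.48 ± 0.11), Kcnq1 (-0.56 ± 0.15) and Kcnj14 (-0.33 ± 0.09) fell. Cacng6, a calcium channel gamma subunit, read 5.91, 5.87 and 5.91 untreated and 6.67, 6.60 and 7.0 with BRD0476 at 12 h. Scn3a read 9.77, 9.80 and 9.74 untreated and 8.99, 9.21 and 9.20 with BRD0476 at 6 h. Groups did not overlap for either gene. The count at 12 h was 2 to 4 when any 1 of the 6 arrays was left out, and the call of Kcnj14 was lost each time. The count at 6 h was 4 without replicate 2 of the untreated cells, and 2 higher and 1 lower were called with arrays centred on their medians. Without the 4 arrays of low weight the counts were 6 at 6 h and 12 at 12 h.

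With time, the change with cytokines in DMSO differed between 12 h and 6 h for 22 members, 8 with a positive and 14 with a negative difference, beside 28.8% of all genes, 11.8% positive and 16.9% negative. With arrays centred on their medians, or quantile normalized, the split was 9 and 10, and centring moved the median of all genes in this comparison from -0.02 to 0.09. Kcnh2 had a difference of -1.35 ± 0.27 (adjusted p = 0.00063) and Kcnk3 of -1.07 ± 0.23 (adjusted p = 0.0014), and both had risen at 6 h. In untreated cells 2 members were called between the times, none higher and 2 lower, beside 1.67% of all genes, 0.464% higher and 1.21% lower: Kcna2 changed by -0.58 ± 0.12 and Kcnip1 by -0.35 ± 0.07. Each call was lost without any of 3 single arrays (adjusted p up to 0.079 for Kcna2 and 0.071 for Kcnip1).

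Genes that work with these channels were taken from a list of 54 measured partners. With cytokines in DMSO 12 of the 54 rose and 16 fell at 6 h, and 9 rose and 18 fell at 12 h. Of all genes 24.3% rose and 27.4% fell at 6 h, and 16% rose and 29.9% fell at 12 h, so these counts show nothing particular to the partners. Rem2, a small GTPase that restrains voltage-gated calcium channels, went from a mean of 8.21 untreated to 5.44 with cytokines at 6 h (-2.77 ± 0.11), and to 7.92 with cytokines and BRD0476. Gem, a GTPase of the same kind, changed by -0.58 ± 0.16 at 6 h and -2.10 ± 0.16 at 12 h, while Rem1 and Rrad were dim and not called. Slc24a2, a sodium-calcium-potassium exchanger, changed by -1.92 ± 0.07 and -1.16 ± 0.07, and Atp2b2, a plasma membrane calcium pump, by -1.45 ± 0.07 and -0.59 ± 0.07. Atp2a3, a calcium pump of the endoplasmic reticulum, rose by 0.88 ± 0.12 and 0.72 ± 0.12. Abcc8, the sulphonylurea receptor of the ATP-sensitive channel, rose by 0.57 ± 0.15 and 0.38 ± 0.15, and its pore Kcnj11 changed by -0.23 ± 0.08 at 6 h and -0.15 ± 0.08 at 12 h, which was not called.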

How the data were processed

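Total RNA of INS-1E cells was hybridised to 24 Affymetrix arrays. The deposited values are a linear intensity per probe set, made by the authors with RMA per the submitters' processing notes; its version is not given in the sources used here. Values were taken to log2 with no further scaling. Of 31099 probe sets, 57 were controls, 436 had several gene symbols and 9780 had none; the 20826 with 1 symbol gave 14217 genes.

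The 8 group means were fitted with limma 3.58.1 (R 4.3.3), and 12 comparisons were read from the fit, with 16 residual and 3.97 prior degrees of freedom. Benjamini-Hochberg adjustment ran over all genes within each comparison. The standard error of a log2 change had a median of 0.102 over genes; the number of arrays limits the precision. With 3 arrays against 3, an exact two-sided permutation test cannot give a p under 0.1. On simulated data for cytokines against none in DMSO at 6 h (14217 genes), 10, 31, 49 and 50 of 50 genes were recovered at log2 changes of 0.25, 0.5, 1 and 2, with 5 false calls among 145.

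Genes given values were, in each of the 8 pairwise treatment comparisons, the 5 largest rises and 5 largest falls among called members with arrays that did not overlap and not dim; up to 4 called members of each difference between responses or times; and a panel of members known in excitable cells. Kcnk6, Kcnd1, Cacnb1, Cacna2d3, Cacng2, Cacng4 and the dim members outside the panel were named after their values were seen. The members and lists were chosen with earlier results of these data known.

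Same-numbered replicates deviated together (r over 0.1) in 8 of 27 pairs, so the numbers were not taken to pair arrays. Alternative settings were a fit on the compared arrays, array weights, a replicate block, averaged probe sets, an intensity trend with robust prior, leaving out dim genes, centring, quantile normalization, a lower dim line, leaving out each array, and leaving out 4 arrays of low weight. Figures used matplotlib 3.10.9. Protein sequences were not used here.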

Additional observations from a re-analysis of the deposited data

Results flagged for a closer look

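Results listed here are differences of at least 1 log2 unit between 2 responses, in members above the line for dim genes. Each was called by limma's test of the difference itself. All are given as log2 differences with no explanation. Kcns3 and Kcnk13 passed the line only with cytokines in DMSO, and Kcnh1 only with BRD0476 alone at 12 h. A group that let a gene pass also enters its difference at that time, so the line favours these differences. Their other levels lay below the line, where fold changes are uncertain. For Kcnc1 the groups at 12 h other than that with both agents also lay below it.

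Between the response to cytokines with BRD0476 and that in DMSO at 6 h, Kcns3 differed by -1.79, Kcnh2 by -1.54, Kcnk13 by -1.21 and Kcna4 by -1.11. Scn3b differed by 1.33, Kcnc1 by 1.30, Kcnj6 by 1.04 and Kcnj14 by 1.0. At 12 h Kcns3 differed by -2.12, Kcnk13 by -1.66, Kcna4 by -1.60 and Kcnh1 by -1.15, and Kcnc1 differed by 1.56 and Kcnk12 by 1.11. Kcns3, Kcnk13, Kcna4 and Kcnc1 are listed at both times, which share no arrays.

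Between 12 h and 6 h of the response to cytokines in DMSO, Kcnj14 differed by 1.42 and Scn3a by 1.28. Both were lower with cytokines at 6 h and higher at 12 h. The rise of Kcnj14 at 12 h was 0.23 ± 0.09 (adjusted p = 0.049), a call lost without most single arrays. Kcnh2 differed by -1.35, Kcnk12 by -1.08 and Kcnk3 by -1.07. For Kcnh2 and Kcnk3 the values at 6 h moved with the spread between replicates that Cacnb3 shows, and its part was not tested. No other explanation was tested for any of these differences.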

How the results depend on the processing

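Over all named results under the alternative settings, the 4 arrays left out having been chosen after seeing the data, 5148 of 5376 values kept direction and side of the threshold, 132 became called, 85 lost the call and 11 reversed. Leaving out each array in turn, 4383 of 4590 were kept, 59 became called and 148 lost the call. All 11 reversals came from averaging the probe sets of a gene. With the mean of its probe sets, Kcnip3 changed by 0.34 with cytokines in DMSO at 6 h and by -0.30 with BRD0476 against DMSO in cells with cytokines at 6 h, and the responses differed by -0.47. Kcnk2 changed by -0.69 at 6 h and -0.61 at 12 h with cytokines in DMSO, -0.53 at 12 h with cytokines and BRD0476, and 0.24 with BRD0476 against DMSO with cytokines at 6 h, with a difference of 0.34. Cacna1a changed by -0.20 with BRD0476 against DMSO with cytokines at 6 h and -0.0725 with cytokines in DMSO at 12 h, and Cacna1b had a difference of -0.0105 at 6 h. For these genes the probe sets differ. For BRD0476 alone at 6 h, 2 members were called, against 7 with array weights, 4 with dim genes left out, 4 with quantile normalization and 6 without the 4 arrays of low weight. At 12 h 7 were called, against 12 with only the arrays compared, 16 with array weights and 12 without the 4 arrays. For untreated cells between the times, 2 were called, against 0 with only the arrays compared, 10 with array weights, 1 with the mean of probe sets and 1 without the 4 arrays. The cause was not tested. With the lower quartile as the line 89 members were not dim. When 1 array was left out, members called ranged from 41 to 45, 22 to 25, 26 to 30, 2 to 4 and 20 to 23 at 6 h (cytokines in DMSO, cytokines with BRD0476, BRD0476 with cytokines, BRD0476 alone and difference between responses) and from 35 to 41, 26 to 33, 25 to 27, 2 to 4 and 15 to 21 at 12 h. The range was 15 to 20 for the change with time of the response and 0 to 2 for untreated cells, with 1 or 0 called without replicate 1 or 2 of either time. With the replicate block 44 members were called with cytokines in DMSO at 6 h and 39 at 12 h, and no count moved by over 1.5 times.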
